A study of Homo sapiens with 24 samples.

Results

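The comparison set DOX-treated cells of a NOD1-carrying line against DOX-treated cells of an empty-vector line, on 4 arrays each, and covered 18417 genes that the platform annotation names by a single symbol. The 8 arrays were chosen by their source label, out of 24 in the series. All were total RNA from THP-1, a human monocytic leukaemia line, measured on Affymetrix arrays. The lines carried a lentiviral cassette (pSLIK_Neo) in which a tetracycline-inducible (TRE) promoter drives the 3X FLAG-tagged NOD1 coding sequence, the 3X FLAG-tagged NLRP4 coding sequence or nothing. Per the labels' protocols, infection was at low copy and stable lines were selected with G418. The labels do not say whether a line was a clone or a mixed population, and they describe 1 line per construct.

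The groups were the NOD1 line with doxycycline (DOX, 1 µg/ml for 6 h) and without it, the NLRP4 line with and without DOX, and the vector line with and without DOX, at 4 arrays a group. All cells were seeded at 50000 per well and all carried the integrated vector and its resistance marker. Both groups compared had received DOX, so that treatment is common to them, while the line and the induced coding sequence differ. The comparison asks which transcripts differ between the NOD1 line and the vector line under DOX. It does not separate induced NOD1 from other differences between the lines. The uninduced arrays of the same lines show how much of a difference was there without DOX.

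NOD1 is a cytosolic receptor of the NOD-like receptor (NLR) family that binds a peptidoglycan fragment of mainly Gram-negative bacteria. On binding it oligomerizes and recruits the kinase RIPK2, which is ubiquitinated and activates the TAK1 and IKK kinases, so that NF-kB and MAP kinases switch on genes such as NFKBIA, TNFAIP3 and chemokines. Overexpression of NOD1 without ligand is known to activate NF-kB in transfected cells. In monocytes the pathway contributes to cytokine production after bacterial entry.

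Array medians in the deposited log2 values ran between 8.06 and 8.85 over the 24 arrays, and averaged 8.50 ± 0.156 in the NOD1 line with DOX and 8.65 ± 0.0698 in the vector line with DOX (SD, n = 4 each). The values below are quantile-normalized log2 signals, on which the median gene stood at 0.02 in this comparison. Correlations between arrays across genes were 0.987 to 0.989 within the NOD1 group, 0.992 to 0.993 within the vector group and 0.970 to 0.976 between them. The labels number the arrays of each line consecutively, 49 to 52 for the NOD1 line with DOX and 5 to 8 for the vector line with DOX, and state that plate order was not randomized, so the line is confounded with its position on the plate and the 2 cannot be told apart. Separate cultures or transductions behind the 4 wells of a group are not stated, and the p-values therefore describe well-to-well spread, which may be technical.

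NOD1 itself checked the labels. Its single probe set read 12.98, 12.60, 12.62 and 12.80 in the NOD1 line with DOX, against 8.35, 8.66, 8.09 and 8.49 in the vector line with DOX. The groups were far apart, with means of 12.75 ± 0.177 and 8.40 ± 0.239 (SD, n = 4 each). The difference was 4.36 on the log2 scale (SE 0.135, limma's adjusted p = 1.15e-16), a 20.5-fold higher signal, and no other gene differed as much. A two-sided exact permutation test gave p = 0.0286, the smallest that 4 arrays against 4 allow. Signal from the transgene and from the endogenous gene is pooled in this probe set. NLRP4, the other construct's gene, read 7.06, 7.16, 6.85 and 7.04 in the NOD1 line and 6.99, 6.99, 7.38 and 6.83 in the vector line, and its difference of −0.02 (SE 0.188) was not called (limma's adjusted p = 0.950).

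**Figure D1:**
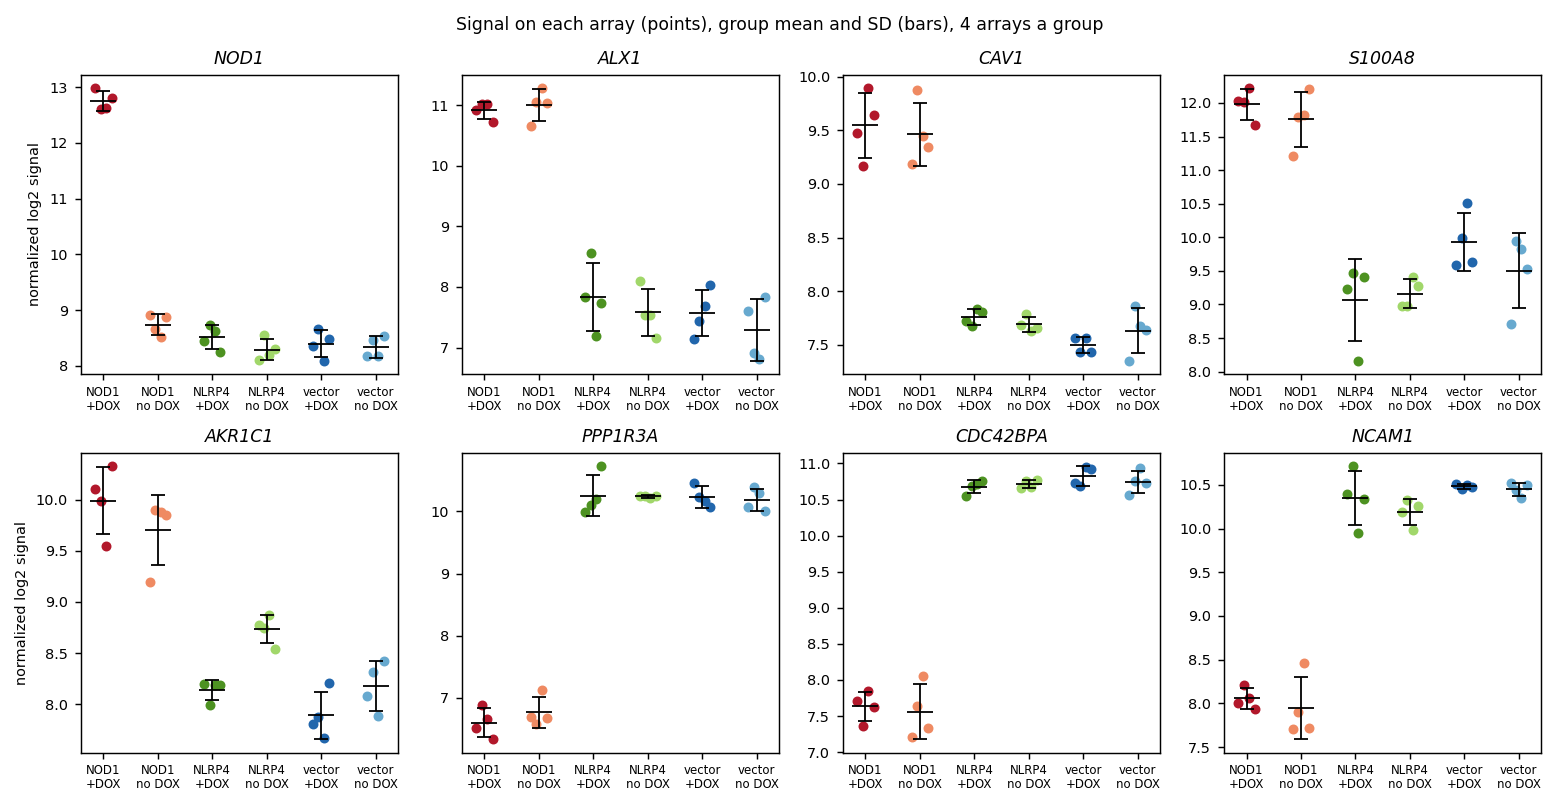
Quantile-normalized log2 signal of 8 genes on each of 24 arrays (points), with the mean and SD of each group of 4 arrays (black bars), groups along the x axis. NOD1 is high in the 4 DOX-treated arrays of the NOD1 line alone, while the other 7 genes shown stand apart in both groups of that line.

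Beyond NOD1 the lines differed widely. A gene was called at a limma adjusted p under 0.05 (Benjamini-Hochberg over all genes). Of 18417 genes, 4746 were called (25.8%), 2502 higher in the NOD1 line (13.6%) and 2244 lower (12.2%). The larger changes ran mostly downward: 408 called genes differed at least 2-fold (2.22%), 108 of them higher (0.586%) and 300 lower (1.63%). In 5287 genes (28.7%) the 4 arrays of one group all lay above the 4 of the other, 2862 with the NOD1 line above (15.5%) and 2425 below (13.2%), and 4236 genes (23%) were both called and free of overlap.

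Most of this difference was also present without DOX. In the NOD1 line against the vector line, both without DOX, 4592 genes were called (24.9%), on arrays that the DOX comparison does not use. Of these, 3512 were called in the same direction with DOX, which is 74.0% of the calls with DOX and 76.5% of those without. Calls in opposite directions were made for 2 genes, named after their values were seen. DEPTOR, an mTOR-binding protein, stood at 0.35 with DOX and −0.32 without, and LONRF3, a RING finger protein, at −0.26 with DOX and 0.34 without (LONRF3 lost its call with DOX at −0.24, adjusted p = 0.0719, without array 3 of the vector line with DOX, and at −0.23, adjusted p = 0.0741, without array 2 of the NOD1 line with DOX). Of the 4746 genes called with DOX, 4658 had the same sign without it. The uninduced NOD1 line also stood apart from the uninduced NLRP4 line, with 4964 genes called (27%), 3597 of them in the direction seen with DOX (75.8% of the DOX calls and 72.5% of the others). Both uninduced comparisons use the same 4 uninduced arrays of the NOD1 line, so they are not separate from each other. By contrast, the NLRP4 line with DOX differed from the vector line with DOX in 7 genes (0.038%).

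The test of the difference between the line differences with and without DOX called 1 gene, NOD1 itself (0.00543% of genes). Its line difference was 0.40 without DOX (SE 0.135, adjusted p = 0.0299) and 4.36 with DOX, so that the 2 differed by 3.95 (SE 0.190, adjusted p = 2.61e-12). At an unadjusted p under 0.05, 745 genes passed (4.05%). The 5 genes next in order of p were not called. USP6NL, a GTPase-activating protein for RAB5, stood at 0.01 with DOX and −1.22 without (adjusted p of the difference 0.299). S100A12, a calgranulin, stood at least at 1.42 with DOX and at −0.08 without, with a difference of 1.50 (adjusted p = 0.730). KLHL5, an actin-binding kelch protein, stood at −0.48 with DOX and −1.33 without, with a difference of 0.85 (adjusted p = 0.234), and was called when array 4 of the uninduced NOD1 line was left out, which made 2 genes. LONRF3 differed by −0.60 (adjusted p = 0.255) and SPICE1, a centriole protein, by −0.62.

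**Figure D2:**
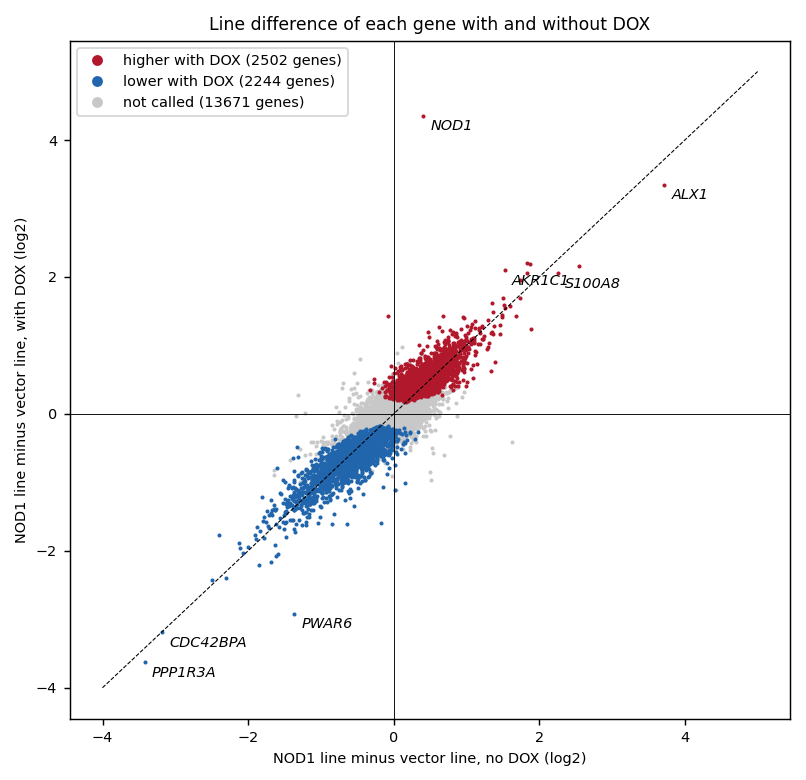
Log2 difference of each of 18417 genes between the NOD1 line and the vector line with DOX (y axis) and without DOX (x axis), coloured by the call with DOX. The dashed line marks equal differences. NOD1 lies far above the dashed line, at 4.36 against 0.40, and the called genes lie along it.

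The largest rises joined genes of unlike kinds. Where the lower group's mean lay under the 25th percentile of all normalized signals (7.79), no background was measured and the fold is given as a lower bound. ALX1, a homeodomain transcription factor of craniofacial mesenchyme, read 10.92, 11.02, 11.01 and 10.72 in the NOD1 line with DOX, against 7.14, 7.45, 7.68 and 8.04 in the vector line with DOX. It was at least 10.1-fold higher (limma's adjusted p = 2.29e-09), and the groups were separated by more than the range within either. CAV1, the main protein of caveolae, read 9.48, 9.17, 9.89 and 9.64 in the NOD1 line and 7.56, 7.43, 7.56 and 7.43 in the vector line, at least 4.14-fold higher (adjusted p = 2.48e-10). BEX5, a small X-linked signalling adaptor, read 9.20, 9.37, 9.62 and 9.68 in the NOD1 line and 7.57, 6.96, 7.18 and 7.52 in the vector line. Both genes had higher signal on each NOD1 array than on any vector array. PIP5K1A, a kinase that makes phosphatidylinositol 4,5-bisphosphate, was at least 4.60-fold higher, and the KRAB zinc finger gene ZNF439 at least 3.24-fold. TSPYL5, a nucleosome assembly protein-like gene, rose by 2.19 (SE 0.219) and ANPEP, the myeloid surface peptidase CD13, by 1.70 (SE 0.160). MFSD2A, a carrier of lysophosphatidylcholine, rose by 1.57 (SE 0.123) and VIT, a matrix protein, by 1.54 (SE 0.135). The remaining members of the 15 largest rises, AKR1C1, AKR1C2, SLC7A11, S100A8 and MX1, are described with their groups.

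Among the largest falls, PPP1R3A and CDC42BPA were near the low end of the signal in the NOD1 line. PPP1R3A, which targets protein phosphatase 1 to glycogen, read 6.52, 6.89, 6.66 and 6.34 in the NOD1 line with DOX, against 10.46, 10.23, 10.17 and 10.07 in the vector line with DOX. It was at least 12.4-fold lower (limma's adjusted p = 1.57e-14). CDC42BPA, a kinase that acts on myosin downstream of CDC42, read 7.70, 7.36, 7.85 and 7.63 in the NOD1 line and 10.72, 10.69, 10.95 and 10.93 in the vector line, at least 9.12-fold lower. For both genes the gap between the groups was several times the range within them. NCAM1, the adhesion molecule CD56, fell by 2.43 (SE 0.140, adjusted p = 3.10e-11), with 8.01, 8.21, 8.07 and 7.94 in the NOD1 line and 10.51, 10.45, 10.50 and 10.48 in the vector line. PWAR6, a non-coding RNA of the Prader-Willi region, was at least 7.58-fold lower with DOX and stood at −2.92 there, against −1.37 without DOX. Its 4 NOD1 arrays were spread over 5.65 to 7.74 and its vector arrays over 8.88 to 9.73.

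The other large falls were of unlike kinds. CCDC88A (girdin, an actin-binding protein) fell by 1.94 and ANKRD26, a protein of the centriole's distal appendages, by 1.89. RADX, a single-stranded DNA-binding protein of replication forks, was at least 4.47-fold lower, and MPDZ, a scaffold of many PDZ domains, at least 3.78-fold lower. DPP10, a potassium channel accessory protein, was at least 4.08-fold lower and ZNF215, a zinc finger gene, at least 5.28-fold lower. PELO, which rescues stalled ribosomes, fell by 2.21 (SE 0.409) and TBC1D30, a Rab GTPase-activating protein, by 2.05 (SE 0.254). ZC2HC1A was at least 4.21-fold lower. TCAF1, a TRPM8 channel-associated protein, fell by 1.97 (SE 0.321), with 10.00 on array 3 of the NOD1 line and 7.72 to 8.26 on its other 3 arrays. EPCAM, an epithelial adhesion molecule, was at least 3.57-fold lower. Probe sets of a gene did not always move together: a second probe set of EPCAM stood at 0.17 and another of TCAF1 at −0.06, neither called. A further probe set of TCAF1 was lower too, at −0.97 (limma's adjusted p = 8.69e-05 with all probe sets tested).

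**Figure D3:**
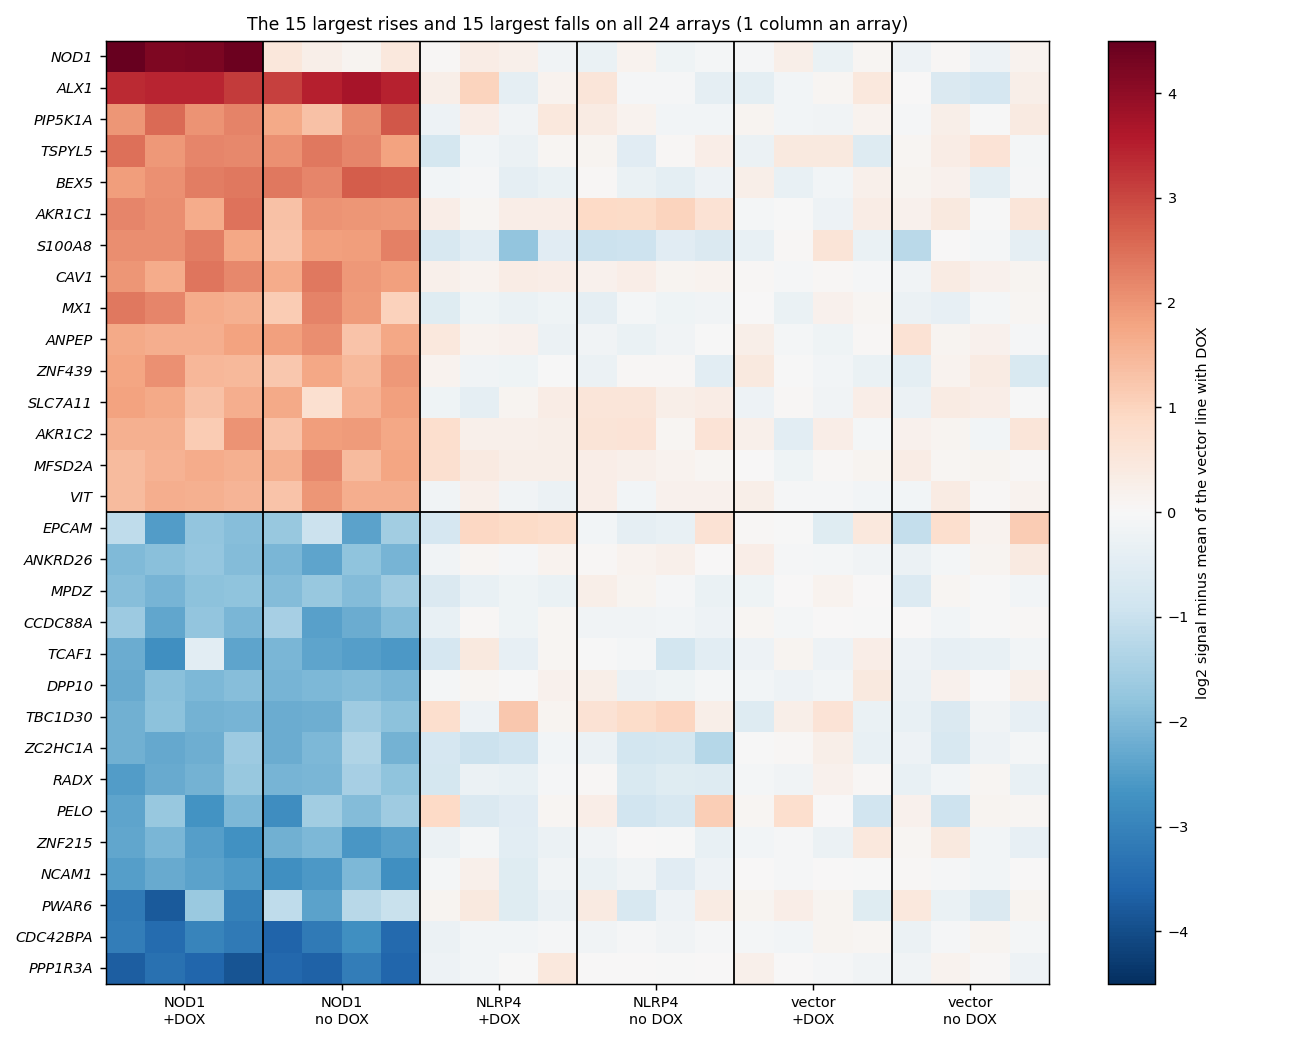
Quantile-normalized log2 signal of the 15 genes with the largest rises and the 15 with the largest falls, less the mean of the vector line with DOX (colour scale), on each of 24 arrays in columns grouped by line and DOX. NOD1 is high only with DOX, and PWAR6 is paler without it. In the NOD1 line, the group means of each of the other genes lie far on one side of 0 with and without DOX. TCAF1 lies closer to 0 on array 3 of the NOD1 line with DOX. Group means of the NLRP4 line lie between −0.87 (S100A8 with DOX) and 0.84 (AKR1C1 without DOX).

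Of 32 genes on a list of NOD1 signalling, 29 were measured, and BIRC3, TRAF2 and TAB1 were not. With NOD1 counted, 6 were called higher (20.7%, against 13.6% of all genes) and 7 lower (24.1%, against 12.2%), and the list's median was 0.06 where that of all genes was 0.02. RIPK2, the kinase that NOD1 recruits, read 9.75, 9.80, 9.47 and 9.29 in the NOD1 line and 9.74, 9.43, 9.59 and 9.73 in the vector line, so the groups overlapped (difference −0.05, adjusted p = 0.832). NOD2, the related receptor of muramyl dipeptide, stood at 0.09 (adjusted p = 0.656). RNF31, the catalytic subunit of the linear ubiquitin ligase, rose by 0.56 (SE 0.106, adjusted p = 0.000297), although its second probe set was not called at 0.26, and its partners RBCK1 and SHARPIN stood at 0.00 and 0.20. TRAF3, an adaptor that restrains alternative NF-kB signalling, rose by 0.53 (SE 0.129). TNFAIP3 (A20) and OTULIN, both deubiquitinases, stood at 0.33 and 0.24 and SLC15A4, an endolysosomal carrier of NOD1 ligands, at 0.43. Those 3 calls were weak: without array 1 of the NOD1 line or array 1 of the vector line the list had 3 higher calls, as it had in the deposited values, and with arrays centred it had 4 lower calls.

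The falls of this list lay among its kinases, adaptors and carriers. ERBIN, a scaffold that restrains NOD2, read 12.25, 11.71, 12.24 and 12.29 in the NOD1 line, against 13.13, 13.20, 13.25 and 13.21 in the vector line (−1.07, SE 0.143, adjusted p = 4.40e-06). SLC15A2, a peptide carrier that takes up NOD ligands, fell by 1.08 (SE 0.159), with 8.64 to 8.78 in the NOD1 line and 9.62 to 9.96 in the vector line. XIAP, a ubiquitin ligase of RIPK2, fell by 0.87 (SE 0.217), with −0.32 and no call without DOX (adjusted p = 0.33). In each of these the groups did not overlap. CHUK (IKK alpha) fell by 0.52 (SE 0.119) and MAP3K7 (TAK1) by 0.43, while IKBKB and IKBKG stood at 0.36 and 0.20, uncalled. TAB2 and TAB3, the ubiquitin-binding partners of TAK1, stood at −0.38 and −0.52, and the TAB3 call was lost on leaving out any 1 of the 8 arrays (adjusted p = 0.0518 to 0.133), the TAB2 call on leaving out array 3 or 4 of the vector line or array 2 or 4 of the NOD1 line (adjusted p = 0.0564 to 0.0743). The remaining members lay between −0.36 (BIRC2) and 0.30 (TRAF6) and were not called. They were CYLD, CARD6, MAVS, ATG16L1, SLC15A1, SLC15A3, SLC46A2, SLC46A3, BIRC2 and TRAF6.

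NF-kB subunits and feedback genes had 10 of 28 members higher (35.7%) and 2 lower, with a median of 0.12. NFKBIA, the inhibitor IkB alpha and a direct NF-kB target, read 10.76, 10.15, 10.92 and 10.56 in the NOD1 line with DOX, against 9.69, 9.42, 9.67 and 9.54 in the vector line with DOX. It rose by 1.01 (SE 0.145, limma's adjusted p = 1.12e-05), and stood at 1.18 without DOX. RELA, the p65 subunit, rose by 0.83 (SE 0.108), TNIP1, an A20-binding inhibitor, by 0.46, and CD83, a maturation marker, by 0.62 (SE 0.113). NFKBIZ, an atypical nuclear IkB, fell by 0.41. In the deposited values 5 members of the list were higher, and 1 was lower without array 1 or 2 of the vector line or array 2, 3 or 4 of the NOD1 line. The secreted products moved less: of 46 cytokines and chemokines 3 were higher and 3 lower (6.52% each), below the 13.6% and 12.2% of all genes. Only 1 was higher without array 1 of the vector line, and 1 lower without its array 3 or 4 or array 3 of the NOD1 line. CCL2, a monocyte chemoattractant, read 9.36, 9.24, 8.69 and 8.82 in the NOD1 line and 8.54, 8.32, 8.26 and 8.34 in the vector line (0.66, SE 0.186, adjusted p = 0.00911), and stood at 0.24 without DOX, where it was not called. The difference between CCL2's line differences with and without DOX was not called either. Of 35 immediate early and MAP kinase feedback genes, 6 were higher (17.1%) and 2 lower (5.71%). JUN, an AP-1 subunit, rose by 0.55 (SE 0.104), and SPRED1, an inhibitor of RAS signalling, was at least 3.00-fold lower.

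Inflammasome genes were among the NLR family's calls. Of 24 members, NOD1 included, 5 were higher (20.8%) and 1 lower, with a median of 0.11, and 2 were lower without array 2 of the vector line or array 2 or 3 of the NOD1 line. CASP1, the protease that matures IL-1 beta, read 11.28, 11.59, 11.29 and 10.95 in the NOD1 line, against 10.40, 9.98, 10.20 and 10.04 in the vector line (1.12, SE 0.160, limma's adjusted p = 1.06e-05). PYCARD, the adaptor ASC that links receptors to caspase-1, rose by 0.67 (SE 0.128), with 9.50 to 10.21 in the NOD1 line and 9.05 to 9.34 in the vector line. Both genes were called without DOX too, at 0.87 and 0.57. NAIP, which senses flagellin and has near-identical copies, fell by 0.57 (SE 0.139). Among 17 sensors of nucleic acids and their kinases, ADAR, an RNA-editing enzyme, rose by 0.78 and TBK1, the kinase of IRF3, fell by 0.81 (SE 0.149).

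Interferon-stimulated genes split. Of 45 measured, 15 were higher (33.3%, against 13.6% of all genes) and 7 lower (15.6%, near the 12.2% of all genes), with a median of 0.19. The interferon-stimulated response element binds the factor ISGF3, and its core was searched as GAAA, any 2 bases, GAAA on both strands of the 250 bases before to 50 bases after each RefSeq start. The core was found in 11 of the 12 higher members that the promoter table holds (91.7%), 3 of 6 lower members (50%) and 9 of 17 uncalled members (52.9%), against 4.38% of all 27305 genes searched. Over all genes tested that the table holds, it was no more frequent in higher genes. It was in 3.69% of higher, 5.18% of lower and 4.02% of uncalled genes. A match says only that the letters are there. The following RefSeq stretches (GRCh38.p14, read along the gene) come from 3 higher and 2 lower genes, to be read side by side with the values below. Capitals mark only the upstream match nearest the start. Upstream of the start, IFI27, IFITM3 and DDX60 had 2 matches each, and MX1 and SAMD9 had 1 each. The other matches of IFI27 and IFITM3 lie within the stretches shown, in lower case.
MX1: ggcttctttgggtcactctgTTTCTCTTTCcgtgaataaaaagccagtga
IFI27: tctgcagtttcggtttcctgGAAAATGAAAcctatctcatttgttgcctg
IFITM3: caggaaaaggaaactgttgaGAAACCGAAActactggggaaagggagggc
SAMD9: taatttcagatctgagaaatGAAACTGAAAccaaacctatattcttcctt
DDX60: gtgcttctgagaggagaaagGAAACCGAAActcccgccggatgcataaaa
The stretches lie at chr21:41431834-41431883 on the plus strand (MX1), chr14:94110621-94110670 on the plus strand (IFI27), chr11:320866-320915 on the minus strand (IFITM3), chr7:93118086-93118135 on the minus strand (SAMD9) and chr4:168318776-168318825 on the minus strand (DDX60). In MX1 the core is on the opposite strand of the gene and therefore printed as its complement.

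MX1, a GTPase that blocks RNA viruses, read 10.26, 10.09, 9.57 and 9.49 in the NOD1 line with DOX, against 7.90, 7.61, 8.10 and 7.98 in the vector line with DOX (1.95, SE 0.205, limma's adjusted p = 2.34e-07). IFI27, a mitochondrial interferon-induced protein, read 10.64, 10.41, 10.25 and 10.63 in the NOD1 line and 8.90, 8.96, 9.13 and 8.99 in the vector line (1.49, SE 0.135). IFITM3, which blocks viral entry in endosomes, read 9.76, 9.59, 9.60 and 10.22 in the NOD1 line and 8.72, 8.39, 8.26 and 8.21 in the vector line (1.40, SE 0.177). In these 3 genes the NOD1 arrays all lay above the vector arrays. SAMD9, a host restriction factor of poxviruses, went the other way, with 9.73, 10.00, 9.65 and 9.70 in the NOD1 line and 11.05, 10.87, 11.00 and 11.03 in the vector line (−1.22, SE 0.150). DDX60, a helicase, read 8.89, 8.87, 9.10 and 8.94 in the NOD1 line and 9.59, 9.56, 9.90 and 9.81 in the vector line (−0.76, SE 0.110). RIGI, a cytosolic receptor of viral RNA, fell by 0.51 (SE 0.140). IFNAR1, a subunit of the type I interferon receptor, fell by 0.85 (SE 0.0974), with 10.82 to 11.08 in the NOD1 line and 11.70 to 11.85 in the vector line. Near-identical copies within the IFITM family may share signal. Of the 22 called members, 18 were called in the same direction without DOX.

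Markers of the monocytic lineage were mostly higher in the NOD1 line. They had signal in both lines, but such markers do not tell THP-1 from other monocytic lines. Of 20 measured markers, 13 were called higher (65%) and 1 lower, with a median of 0.47. Their summed linear signal was 90909 to 95695 in the NOD1 line with DOX, against 68393 to 71184 in the vector line with DOX, and 1 and 2 of the 20 averaged under the 25th percentile of signal. CD68, a lysosomal glycoprotein of macrophages, read 12.49, 12.54, 12.85 and 12.55 in the NOD1 line and 11.39, 11.36, 11.44 and 11.53 in the vector line (1.18, SE 0.129, limma's adjusted p = 3.64e-07). PTPRC, the leukocyte phosphatase CD45, fell by 0.32. CD93, a myeloid surface lectin, rose by 1.29 (SE 0.134) and CSF1R, the receptor of macrophage colony-stimulating factor, by 0.63 (SE 0.131). SPI1 (PU.1), the main transcription factor of the lineage, rose by 0.89 (SE 0.0998), with 10.00 to 10.41 in the NOD1 line and 9.29 to 9.43 in the vector line. In bulk RNA, fewer cells of a kind and less RNA per cell cannot be told apart. Markers of other cells had lower sums, over lists of fewer genes. The 11 T and NK cell markers summed to 2775 to 3201 in the NOD1 line and 2602 to 2760 in the vector line, and 8 of them averaged under the 25th percentile in both groups. Of these 11, limma called 1 higher, NKG7, a cytotoxic granule protein (0.33, adjusted p = 0.0166, with 0 called without array 3 of the vector line or array 2 or 4 of the NOD1 line), and 2 passed an unadjusted p under 0.05. The 11 markers of epithelium and HEK-293 (a relative of the cells in which the virus was made) summed to 2922 to 3478 in the NOD1 line and 3538 to 4268 in the vector line, with 0 higher and 2 lower, EPCAM and KRT8, an epithelial keratin (1 lower without array 2 or 4 of the vector line or array 2 or 3 of the NOD1 line). The EPCAM call rests on its brighter probe set, and its other probe set stood at 0.17 and was not called. In both groups 4 of these 11 averaged under the 25th percentile, 3 of the 9 erythroid and megakaryocyte markers did so, and of the 7 B cell markers 2 did so in the NOD1 line and 3 in the vector line. Most markers of those 3 lists therefore stood above that level. Of the 7 B cell markers and the 9 erythroid and megakaryocyte markers, limma called 0 at the adjusted threshold and 0 at an unadjusted p under 0.05.

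Granule proteins had 10 of 19 members higher (52.6%) and 1 lower, with a median of 0.41. S100A8, a calcium-binding calgranulin secreted by neutrophils and monocytes, read 12.03, 12.01, 12.22 and 11.66 in the NOD1 line with DOX, against 9.59, 9.99, 10.51 and 9.64 in the vector line with DOX (2.05, SE 0.274, limma's adjusted p = 4.62e-06). AZU1 (azurocidin) rose by 0.83 (SE 0.112) and CTSG (cathepsin G) by 0.42. Of the surface proteins of monocytes and macrophages, 8 of 28 were higher (28.6%), TREM2, a lipid receptor, among them at 0.63, and 2 were lower. The lower call of MSR1, a scavenger receptor, was lost on leaving out any 1 of the 8 arrays but array 1 of the NOD1 line (adjusted p = 0.0674 to 0.142). Toll-like receptors and co-receptors had 1 of 18 higher (5.56%, against 13.6% of all genes) and 2 lower (11.1%, near the 12.2% of all genes). The higher one was CD14, the lipopolysaccharide co-receptor, and its call was lost on leaving out any array but array 4 of the NOD1 line (adjusted p = 0.0511 to 0.114). TLR4, the lipopolysaccharide receptor, read 9.13, 8.94, 9.18 and 8.67 in the NOD1 line and 9.96, 9.73, 10.07 and 10.05 in the vector line (−0.97, SE 0.155). CD36, a scavenger receptor, fell by 0.58 (SE 0.0964). The group's medians for surface proteins and Toll-like receptors were 0.11 and 0.04, and turned to −0.04 and −0.10 in the deposited values. Growth factor receptors and stem cell genes had 6 of 18 higher (33.3%) and 0 lower, with KIT, the receptor of stem cell factor, at least 2.37-fold higher and FLT3 at 0.56. Integrins and adhesion genes had 10 of 28 higher (35.7%) and 4 lower (14.3%, near the 12.2% of all genes). ITGB2, the shared beta chain of leukocyte integrins, rose by 0.70 (SE 0.111), while ITGA4 fell by 0.90 (SE 0.116) and ITGA6 by 0.91.

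Antioxidant and pentose phosphate genes that the factor NRF2 is known to control had 17 of 32 members higher (53.1%, against 13.6% of all genes) and 1 lower, with a median of 0.34. AKR1C1, an aldo-keto reductase, read 10.11, 9.98, 9.55 and 10.32 in the NOD1 line with DOX, against 7.81, 7.87, 7.67 and 8.21 in the vector line with DOX (2.10, SE 0.161, limma's adjusted p = 2.53e-09). Its second probe set was not called at 0.16, and signal of AKR1C1 and the near-identical AKR1C2 (1.59, SE 0.195) may be mixed. SLC7A11, the cystine carrier that feeds glutathione synthesis, read 10.95, 10.84, 10.46 and 10.77 in the NOD1 line and 8.92 to 9.44 over the 4 arrays of the vector line (1.61, SE 0.198). PGD, an enzyme of the pentose phosphate pathway, rose by 1.00 (SE 0.0919), with 12.10 to 12.23 in the NOD1 line and 11.09 to 11.25 in the vector line, and TALDO1, another, by 0.76. FTL, ferritin's light chain, rose by 1.08 (SE 0.0829). NFE2L2, which encodes NRF2, fell by 0.51 (SE 0.104), with 11.65 to 11.79 in the NOD1 line and 12.18 to 12.32 in the vector line. The antioxidant response element's core (TGAC, any 3 bases, GC) was in 6 of 14 higher members with a promoter entry (42.9%), 3 of 10 uncalled members (30%) and 16.1% of all genes searched. Over all genes tested with an entry, the core was in 20.3% of higher and 17.9% of uncalled genes. PGD carries it on the opposite strand of the gene at chr1:10398843-10398891 (GRCh38.p14, plus strand), shown because it was a called member with 1 match.
PGD: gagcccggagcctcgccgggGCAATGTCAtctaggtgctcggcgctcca

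Amino acid response genes downstream of ATF4 had 18 of 35 members higher (51.4%) and 2 lower (1 without array 3 of the vector line), with a median of 0.27. SHMT2, the mitochondrial serine hydroxymethyltransferase, rose by 1.03 (SE 0.144), with 11.80 to 12.13 in the NOD1 line and 10.82 to 10.93 in the vector line. DDIT3 (CHOP), a transcription factor of the stress response, rose by 0.99 (SE 0.157), and SLC3A2, the heavy chain of amino acid carriers, by 0.78. DDIT4, an inhibitor of mTORC1, fell by 1.06 (SE 0.177), with 9.24 to 9.89 in the NOD1 line and 10.33 to 10.72 in the vector line. The cytosolic aminoacyl-tRNA synthetases, which load tRNAs with amino acids, had 10 of 20 higher (50%) and 2 lower. AARS1 rose by 0.92 (SE 0.0987), MARS1 by 0.88 (SE 0.104) and YARS1 by 0.82. Chaperones of the endoplasmic reticulum and heat shock proteins had 11 of 29 higher (37.9%) and 3 lower (1 lower without array 4 of the NOD1 line). The lower share, 10.3%, was near the 12.2% of all genes. HYOU1, a chaperone of the HSP70 family, rose by 1.10 (SE 0.117), with 11.23 to 11.36 in the NOD1 line and 10.15 to 10.25 in the vector line.

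Mitochondrial, proteasomal and lysosomal genes were each called higher far more often than lower. Respiratory chain subunits had 31 of 69 higher (44.9%) and 1 lower, with a median of 0.23. NDUFV1, a flavoprotein of complex I, read 11.70, 11.53, 11.57 and 11.82 in the NOD1 line with DOX, against 10.50, 10.42, 10.40 and 10.45 in the vector line with DOX (1.22, SE 0.133, limma's adjusted p = 3.67e-07). CYC1, of complex III, rose by 1.05 (SE 0.130). Mitochondrial ribosomal proteins had 35 of 72 higher (48.6%) and 3 lower (1 without array 4 of the vector line and 0 without array 2 of the NOD1 line), led by MRPL37 at 0.98 (SE 0.0967), MRPL24 at 0.85 and MRPL20 at 0.83. Cytosolic ribosomal proteins did not share this: 8 of 57 were higher (14%) and 3 lower, with a median of 0.02, and 3 were higher without array 4 of the NOD1 line, 4 without its array 3 and 4 without array 1 of the vector line. The proteasome had 16 of 33 higher (48.5%) and 2 lower, with PSMC3, an ATPase of its cap, at 1.01 (SE 0.105). The immunoproteasome subunits PSMB8, PSMB9 and PSMB10 rose by 0.96, 0.56 and 0.62. Lysosomal genes had 25 of 46 higher (54.3%) and 2 lower (1 without array 4 of the NOD1 line). ATP6V0D1, a subunit of the proton pump, rose by 1.27 (SE 0.178) and TPP1, a tripeptidyl peptidase, by 1.09 (SE 0.143), and all arrays of the NOD1 line lay above those of the vector line in both. Under median centring of the arrays in place of quantile normalization, higher calls numbered 19 for the respiratory chain, 8 for the proteasome and 16 for lysosomes.

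Glycolytic enzymes and hypoxia targets divided. Of 32 genes, 11 were higher (34.4%) and 7 lower (21.9%), with a median of 0.02. ALDOA, a glycolytic aldolase, rose by 1.01 (SE 0.114), with 11.24 to 11.50 in the NOD1 line and 10.33 to 10.50 in the vector line. BNIP3 and BNIP3L, mitophagy receptors that HIF-1 induces, fell by 1.29 each (SE 0.157 and 0.163), with 10.19 to 10.75 and 9.32 to 9.85 in the NOD1 line, against 11.53 to 11.88 and 10.71 to 10.88 in the vector line. PDK1, a kinase that keeps pyruvate from the mitochondria, fell by 1.28 (SE 0.169). Of 28 genes of cholesterol and fatty acid synthesis, 5 were higher (17.9%) and 7 lower (25%), against 13.6% and 12.2% of all genes. Without array 3 of the vector line or array 3 or 4 of the NOD1 line, 3 were higher. CYP51A1, a sterol demethylase, fell by 0.66 on its brighter probe set and by 0.63 on the other, and INSIG1, the sterol sensor's retention protein, fell by 0.68. Among metallothionein and zinc genes, 8 of 17 were higher (47.1%) and 2 lower (11.8%, near the share of all genes). MT1G rose by 0.71, and near-identical metallothioneins may share signal. SLC39A10, a zinc importer, fell by 1.11 (SE 0.134). Of 18 iron genes, ALAS1, the first enzyme of haem synthesis, rose by 1.06 and CYBRD1, a ferric reductase, fell by 0.55.

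Genes of cell division were mostly lower, with exceptions. In the G2/M and mitosis list, 25 of 49 members were lower (51%, against 12.2% of all genes) and 5 higher, with a median of −0.31. ASPM, a spindle pole protein, read 11.06, 10.89, 11.00 and 11.10 in the NOD1 line with DOX, against 12.55, 12.45, 12.48 and 12.45 in the vector line with DOX (−1.47, SE 0.139, limma's adjusted p = 4.90e-08). CENPF, a kinetochore protein, fell by 1.26 (SE 0.118) and KIF11, the motor that separates spindle poles, by 1.16 (SE 0.115). CDC20, the activator of the anaphase-promoting complex, was among the exceptions, with 11.81, 11.93, 11.93 and 11.78 in the NOD1 line and 10.84, 10.82, 10.97 and 10.93 in the vector line (0.97, SE 0.0965). KIF2C, a kinesin that removes tubulin, rose by 0.79 (SE 0.128). The other 3 that rose, named after their values were seen, were PLK1, CDCA8 and KIF20A, at 0.66, 0.66 and 0.30. Replication and S phase genes had 18 of 53 higher (34%) and 5 lower. CCNE1 (cyclin E1) rose by 0.77 and POLA2, a subunit of DNA polymerase alpha, by 0.74, while POLA1, its catalytic partner, fell by 0.58 and RFC1, the large subunit of the clamp loader, by 0.77.

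Centrosome and cilium genes had the lowest median of the 33 lists, −0.63, with 31 of 50 members lower (62%) and 3 higher. CEP135, a core protein of the centriole's cartwheel, read 9.78, 9.51, 9.56 and 9.97 in the NOD1 line, against 11.07, 10.96, 11.02 and 11.08 in the vector line (−1.33, SE 0.124, limma's adjusted p = 4.16e-08). CEP97, which caps centrioles, fell by 1.20 (SE 0.130) and CEP128 by 0.93. BBS2, a subunit of the BBSome that carries cargo into cilia, rose by 0.82 (SE 0.124), with 9.75 to 9.88 in the NOD1 line and 8.81 to 9.11 in the vector line. Of the 34 called members, 32 were called in the same direction without DOX.

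Gene length moved with these calls. The genomic length of genes, from the RefSeq table of GRCh38.p14, had a median of 19.4 kb in genes called higher, 59.2 kb in genes called lower and 21.5 kb in the rest. With genes ranked by length in 10 classes, 18.1% of genes in class 2 (2.72 to 6.25 kb) were called higher and 2.29% lower, and in class 9 (85.0 to 154 kb) 9.79% were higher and 23.9% lower. The centrosome list had a median length of 83.2 kb. The part of gene length in the changes of any list was not tested. Called genes also had brighter signal, with median levels of 10.02 and 10.31 among genes called higher and lower, against 8.44 among the rest.

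The calls were spread unevenly over the genome. On chromosome 16, 202 of 759 genes were higher (26.6%) and 18 lower (2.37%), and on chromosome 22, 80 of 423 were higher (18.9%) and 10 lower. Chromosomes 13, 10 and 4 went the other way, with 24.6%, 21.6% and 22.0% of their genes lower and 5.68%, 4.27% and 6.76% higher. Zinc finger genes named ZNF were lower on chromosome 19 (55 of 237, 23.2%, with 9 higher) and elsewhere (68 of 257, 26.5%, with 21 higher), beside the 12.2% of all genes. In windows of 25 neighbouring genes, chosen after their values were seen, the highest median was 0.55 on chromosome 1 between RIMKLA and KDM4A, where 16 genes were higher and 0 lower and CDC20 and SLC2A1 lie. The window from S100A3 to HAX1 on the same chromosome had a median of 0.44. The lowest was −0.66 on chromosome 19 between ZNF826P and ZNF675, with 1 gene higher and 16 lower, followed by −0.53 on chromosome 7 between CFAP69 and CASD1, the window that holds SAMD9 and CYP51A1. DNA copy number was not measured here.

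**Figure D4:**
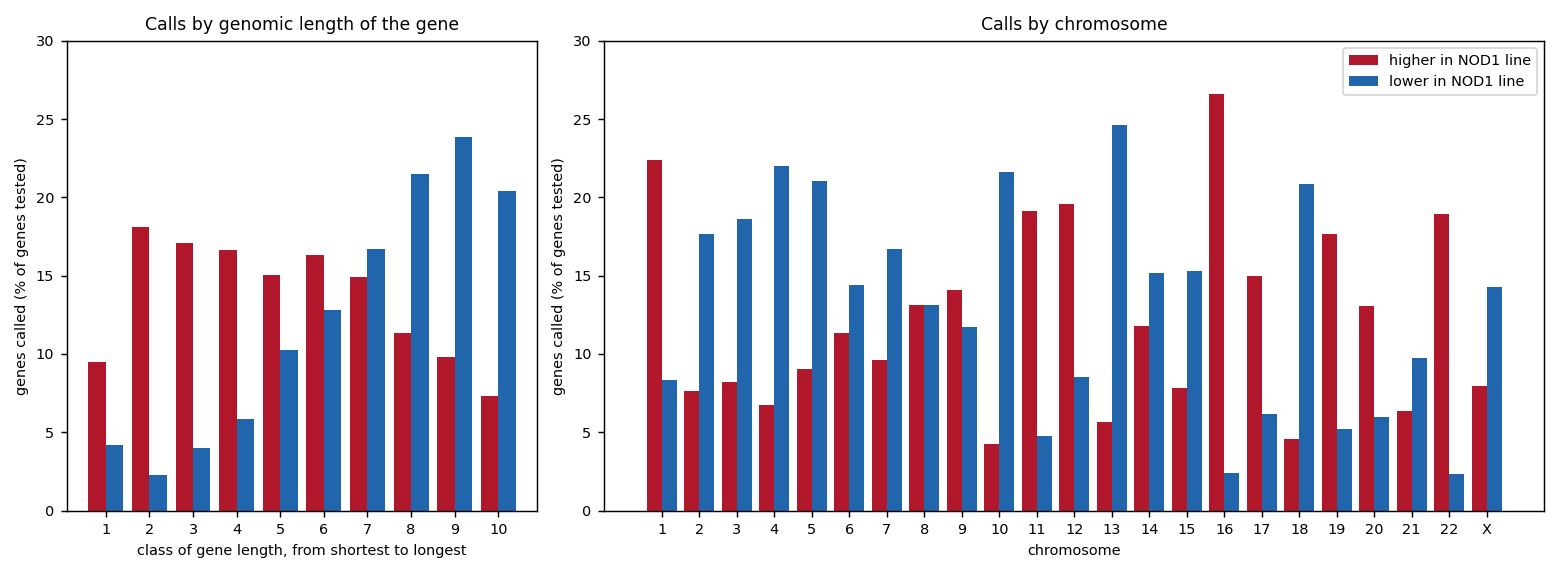
Share of genes called higher (red) and lower (blue) in the NOD1 line against the vector line, both with DOX, by class of gene length (left, 10 classes from shortest to longest) and by chromosome (right), in percent of the genes tested in each. Lower calls peak at 23.9% in length class 9, and chromosome 16 has the highest share of higher calls, 26.6%.

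Genes of MHC, apoptosis and the p53 response are among the remaining lists. Of 17 MHC class I and II genes, 4 were higher (23.5%) and 1 lower (5.88%), against 13.6% and 12.2% of all genes. The lower one, HLA-DQB1, lost its call without array 4 of the vector line (−0.53, limma's adjusted p = 0.0593). Of 27 genes of the BCL2 family and apoptosis, 3 were higher (11.1%) and 4 lower (14.8%), near the 13.6% and 12.2% of all genes, and 5 were higher without array 3 of the NOD1 line. Called members were MCL1, a survival factor, at 0.43 and BCL2 at −0.49. Of 23 p53 targets, 7 were higher (30.4%) and 2 lower (8.70%), against 13.6% and 12.2% of all genes. Without array 2 of the vector line 4 were higher, and without any 1 array but array 1 of the vector line or array 4 of the NOD1 line 1 was lower. GADD45A, a DNA damage-inducible gene, rose by 1.09 (SE 0.129), with 10.34 to 10.65 in the NOD1 line with DOX and 9.09 to 9.64 in the vector line with DOX, and RRM2B, a subunit of ribonucleotide reductase, fell by 0.71. Interleukin and interferon receptors had 4 of 26 higher (15.4%, near the share of all genes) and 1 lower (3.85%), with IL6R, the receptor of interleukin 6, at 0.66 (SE 0.179). Myeloid transcription factors had 5 of 21 higher (23.8%) and 4 lower. GFI1, a repressor of transcription, rose by 0.63, and RUNX2 and MEIS1 fell by 0.52 and 0.41.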

How the data were processed

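The authors deposited log2 signals, 1 per probe set and array, made with RMA and the oligo package per the submitters' processing notes. For versions, step order and the array's genome build, nothing was given in the sources used here. Of 33297 probe sets, 19460 had 1 gene symbol, 1754 several and 12083 none here. Symbols were updated through a RefSeq table of GRCh38.p14 (19429 matched). The brightest probe set stood for a gene, which left 18417 genes, 769 with more than 1 probe set. Array medians differed, so the gene table was quantile-normalized. No dim gene was removed and no background was measured.

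A limma model (version 3.58.1, R 4.3.3) with 6 group means was fitted to the 24 arrays (18 residual degrees of freedom) and moderated by empirical Bayes. Calls needed an adjusted p (Benjamini-Hochberg) under 0.05. The fit was tested on simulated data. Adjusted p-values in the text are limma's. The members and the 38 gene lists (1264 entries, 1147 measured) were chosen with earlier results of these data known, so no list test was made. Genes named are NOD1 and NLRP4, the 15 largest rises and falls without overlap, all of the NOD1 pathway list, for each other list at most 4 called genes by lowest p and 2 of the rarer direction, and those leading the test of DOX dependence. For any other gene the text says that it was picked with its values in view. Alternatives were the deposited values, arrays centred on their medians, only the arrays compared, no genes under the 25th percentile of level, the mean of probe sets, all probe sets, array weights, the array median as covariate, a trended robust prior and each array left out. The number of arrays, 4 a group, limits the precision.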

Additional observations from a re-analysis of the deposited data

Results flagged for a closer look

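NOD1 was the 1 gene whose line difference changed with DOX by the test of that difference, at 3.95 on the log2 scale (limma's adjusted p = 2.61e-12), higher on all 4 arrays of the NOD1 line with DOX.

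For each of 213 named genes and both groups compared, the array farthest from the other 3 was checked with Dixon's criterion. Of 426 groups of 4 arrays, 16 exceeded it (3.76%). Among unselected values about 1 in 20 would exceed it. Many of the named genes were picked for a low p or for lack of overlap on these arrays, so that rate is no baseline for them. In the NOD1 line with DOX, the outlying log2 signals were 11.71 for ERBIN, 8.42 for HLA-DQB1 and 10.94 for SESN1 on array 2, 7.90 for SLC15A3 and 6.98 for MSR1 on array 1, 12.91 for KARS1 and 11.94 for ATP6V1C1 on array 4, and 10.72 for POLA2 on array 3. In the vector line with DOX, they were 9.18 for DPP10, 7.95 for NOD2, 10.63 for OTULIN, 10.50 for ALDOA and 13.29 for RPL8 on array 4, and 10.43 for FLT3, 11.87 for PDIA4 and 12.29 for NDUFA5 on array 1. ERBIN's outlying array lay on the side away from the vector line, and the other 3 arrays, at 12.24 to 12.29, were still below every vector array.

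Probe sets that carry several symbols or none stood outside the main comparison. Of 13837, 2313 were called between the NOD1 line and the vector line, both with DOX (16.7%), 1032 higher and 1281 lower.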

How the results depend on the processing

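Counts of calls with DOX over all genes stayed within 1.5 times of the reported ones except under 2 settings. In the deposited values 1632 genes were higher and 2130 lower, 3762 in all, as the median gene stood at −0.08 there. With all 33297 probe sets tested, 7667 were called, 4477 of them higher and 922 at 2-fold or more. The other settings called 4061 to 5428 genes, and leaving out 1 array called 4119 to 4516. The test of DOX dependence called 1 or 2 genes when an array was left out, NOD1 each time, and 1 in every other setting. Of 1292 recomputed counts per gene list and direction, 128 moved by more than 1.5 times, 109 of them where the reported count was 5 or fewer. Centring moved 22 of 76, the deposited values 23 of 76 and leaving out 1 array 54 of 608. Of 213 named genes, 161 kept their direction and side of the threshold in all settings. Signs turned only for uncalled genes, and the cause was not tested. NOD2 and SLC15A1 stood at −0.07 and −0.14 in the deposited values. With centred arrays NOD2 was at −0.025, SLC15A1 at −0.0925, RBCK1 at 0.040 and ATG16L1 at 0.0425. With all probe sets NLRP4 was at 0.057, RIPK2 at 0.040, SLC46A2 at 0.018, RBCK1 at 0.084 and ATG16L1 at 0.077. With the array median as covariate NLRP4 was at 0.081 and CYLD at −0.041. Leaving out 1 array gave −0.0957 to 0.087 for NLRP4, −0.12 to 0.049 for RIPK2, −0.0875 to 0.0071 for SLC46A2, −0.044 to 0.059 for RBCK1, −0.041 to 0.036 for ATG16L1 and −0.094 to 0.17 for USP6NL. No paired analysis was possible because the labels number the arrays consecutively and give the groups no shared replicate number. With 4 arrays a group and no measured background, small differences and dim genes are the least certain.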

Other observations

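Symbol stems with at least 8 genes tested were looked through after the values were seen, and those below are a description only. Between the NOD1 line with DOX and the vector line with DOX, counts of calls varied between stems of RNA processing and transcription. Over all genes, 13.6% were higher and 12.2% lower. Of 10 genes named SF, most of them splicing factors, 8 were higher and 2 lower, with a median of 0.50. RNA polymerase subunits (POLR) had 14 of 31 higher and 3 lower, exosome subunits (EXOSC) 4 of 10 higher and 0 lower, and translation elongation factors (EEF) 6 of 12 higher and 1 lower. Genes named PRPF had 6 of 11 higher and 3 lower. RNA-binding motif genes (RBM) had 6 of 35 higher and 9 lower, TAF genes 4 of 23 higher and 6 lower, and CNOT genes 2 of 11 higher and 3 lower. SRSF splicing factors, with 2 of 12 higher and 2 lower, were near the shares of all genes. Translocases of the inner mitochondrial membrane (TIMM) had 6 of 14 higher and 0 lower.

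Some stems had more lower than higher calls, where 13.6% of all genes were higher and 12.2% lower. Centrosomal proteins (CEP) had 23 of 37 lower and 2 higher, and genes named DPY 6 of 8 lower and 0 higher. Bitter taste receptors (TAS) had 9 of 27 lower and 0 higher, with a median of −0.46, and 8 were lower without DOX. Subunits of the exocyst (EXOC) had 5 of 11 lower and 2 higher, genes named RAD 7 of 16 lower and 2 higher, and DOCK guanine nucleotide exchange factors 4 of 11 lower and 0 higher. Non-coding genes were called less often than the 25.8% of all genes: of 632 long non-coding RNA genes 17 were higher and 34 lower, and of 173 miRNA genes 1 was higher and 8 lower.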
